A study of Mus musculus with 16 samples.

Results

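The Trpc genes encode the canonical transient receptor potential channels, which let calcium and sodium into cells after receptors coupled to Gq proteins, or receptor tyrosine kinases, switch on phospholipase C. They assemble as tetramers of like or mixed subunits. In cortical neurons they are known for slow depolarizations that follow receptor activation and, in the case of TRPC5, for holding back neurite and growth cone extension. The 5 members described here, Trpc1, Trpc4, Trpc5, Trpc6 and Trpc7, were the Trpc genes with a probe set annotated to a single symbol on both types of microarray used, out of 19938 genes measured at postnatal days (P) 9 and 14 and 22180 genes measured at P21. Each member had 1 such probe set on each array type. The family was selected on the P14 difference of Trpc5 between mutants and controls, which was already known, so that value is a description and carries no test.

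RNA from mouse cortex was hybridized to 1 array per mouse. In the loss-of-function mice, Map2k1 loxp/loxp;Map2k2-/-;Neurod6-Cre (Map2k1/2;Neurod6-Cre), both kinases directly upstream of ERK were removed: Map2k1 by Cre expressed from the Neurod6 (Nex) promoter, thus in excitatory neurons and not in interneurons or glia, and Map2k2 through a germline deletion in all cells. There were 2 mutants and 2 controls at P9 and 3 mutants and 3 controls at P14. In the gain-of-function mice, ca-Map2k1;Neurod6-Cre, the same Cre switched on a constitutively active Map2k1, and 3 mutants and 3 controls were measured at P21 on the other array type. Controls were littermates with or without Cre, on a mixed genetic background, and no source used here says which control carried Cre or a Map2k2 allele. The methods describe the dissected tissue as dorsal cortex and the labels as sensorimotor or sensory cortex, and mice are named below by the numbers in their labels. Values are log2 signals after normalization by robust multi-array averaging. P9 and P14 were normalized apart and P21 came from another array, so levels were compared within an age only. The members' levels were not set against each other, and a rank among all genes is given for Trpc7 only.

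Trpc5 was the member that differed most between mutants and controls at every age (the plot of the 5 genes by mouse). Its signal was lower in both loss-of-function ages and higher in the gain-of-function mice, and the groups did not overlap at any of the 3 ages. Trpc4, which forms channels together with TRPC5, had the same 3 directions at a smaller size. Trpc6 was lower at P14, and Trpc1 and Trpc7 changed little. In limma's test over all genes, no other member had an adjusted p under the threshold of 0.05 at any age. Trpc5 had one at P14 only, the value that chose the family, so that call is a description.

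**Figure D1:**
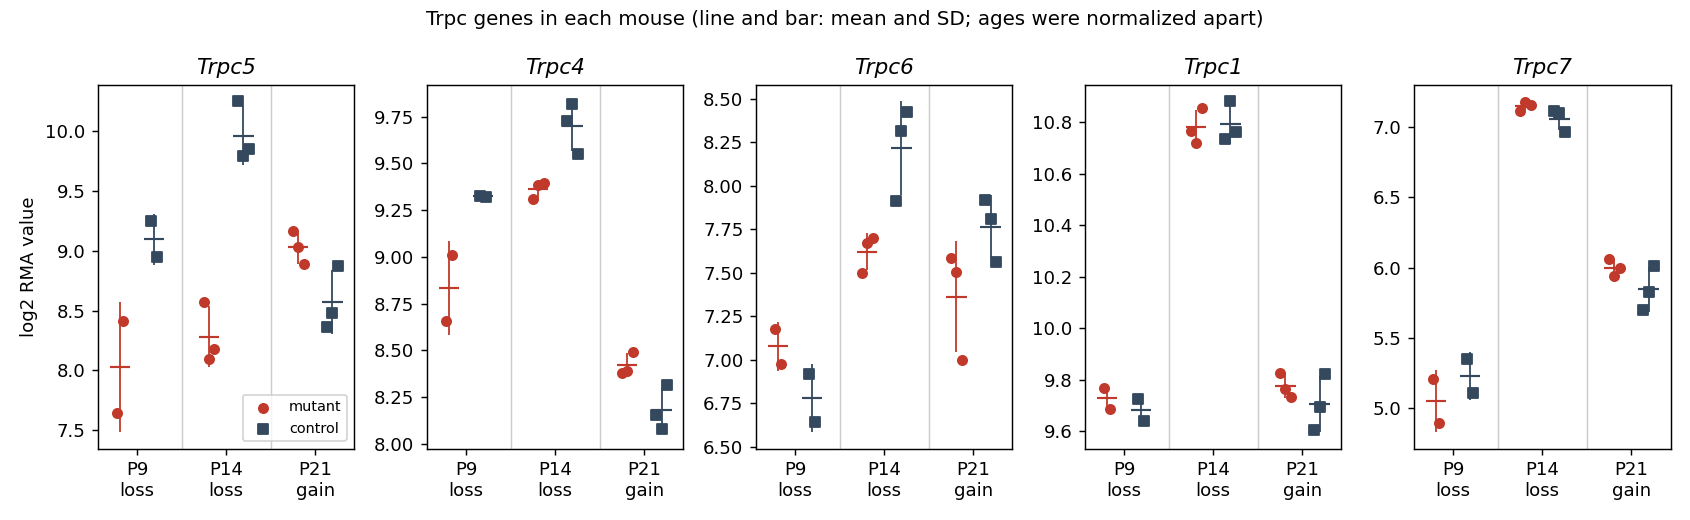
Log2 signal of each Trpc gene in each mouse (y axis) at P9 and P14 in Map2k1/2;Neurod6-Cre mice and at P21 in ca-Map2k1;Neurod6-Cre mice, with mutants as red circles and controls as dark squares. Horizontal lines are group means and vertical lines 1 SD. Trpc5 and Trpc4 mutants lie below their controls at P9 and P14 and above them at P21.

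Trpc5 lies on the X chromosome. The sequence just before its annotated start is shown because the next gene on that side, Rtl4, was the neighbour whose signal differed in the same 3 directions (described further below). In RefSeq's annotation of GRCm38.p6, 28 bases separate the annotated spans of Trpc5 and Rtl4, here on the minus strand and read in the direction of Trpc5 (chrX:144688181-144688208). The stretch before Trpc1, the paralogue that hardly differed, is given for contrast (chr9:95750387-95750598, minus strand). Both are written 5′ to 3′ in lower case, with capitals marking matches on either strand to any of 8 motifs.
Trpc5: gaagggtctcaggttgagagagagagag
Trpc1: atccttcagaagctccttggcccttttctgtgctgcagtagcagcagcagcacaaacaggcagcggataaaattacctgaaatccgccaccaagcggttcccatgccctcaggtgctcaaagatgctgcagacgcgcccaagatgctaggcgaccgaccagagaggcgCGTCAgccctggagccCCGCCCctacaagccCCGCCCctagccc

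The motifs were searched in the 250 bases before an annotated RefSeq start, which need not be the outer end of a gene's span. There were 32851 windows in all. The motifs are listed with the share of windows that held each. They were the CREB full site TGACGTCA (found in 1.55% of windows), its shorter form TGACG, which lies within the full site (17.8%), the AP-1 site TGANTCA (6.75%), the ETS core CCGGAA (12% of windows), the Egr site GCGTGGGCG (0.536%), TATAAA (12.4%), CCAAT (33.8%) and the GC box GGGCGG (32.7%). None of these letters occurred in the Trpc5 window, most of which runs inside the annotated span of Rtl4. The Trpc4 and Trpc6 windows lay wholly inside those genes' own spans. So did 179 bases of the Trpc7 window and 38 of the Trpc1 window. The windows are thus at unlike positions, and their counts are not a like comparison. The Trpc4 window held 1 CCGGAA, 1 TATAAA and 2 GGGCGG, the Trpc1 window 1 TGACG and 3 GGGCGG, the Trpc6 window 1 TGACG, and the Trpc7 window none. The Trpc1 stretch printed above is the 212 bases of its window outside the Trpc1 span, so it does not show every match counted. The Trpc5 window had 7 CpG dinucleotides, against 17 for Trpc1, 12 for Trpc4, 12 for Trpc6 and 2 for Trpc7, with a median of 6 over all windows. A match here is a run of letters and not a measured site.

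At P14, Trpc5 was 8.57, 8.10 and 8.18 in Map2k1/2;Neurod6-Cre mutants 1, 9 and 11, against 10.24, 9.79 and 9.84 in controls 2, 10 and 12. The highest mutant lay more than 1 log2 unit below the lowest control. The mean was 8.28 ± 0.25 in mutants and 9.96 ± 0.25 in controls (SD, n = 3 each), a difference of -1.68 (SE 0.17, 95% confidence interval -2.07 to -1.29). This is 3.20 times less signal in the mutants (2.44 to 4.19 times), and 11 of the 19938 genes had a lower difference. Trpc5 was thus 1 of 5 members called lower at P14, where 0.697% of all genes were called lower and 0.391% higher. Its groups were also among the 6.52% of genes with mutants wholly below controls. Since the family was chosen for this fall, nothing is read from either. The call of Trpc5 was lost without mutant 9 or without mutant 11 (differences of -1.58 and -1.62), with sex as a covariate (-1.39) and without moderation of the variance. The array covers all cells of the dissected cortex, and fewer cells that express a gene cannot be told apart from less RNA per cell.

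The P9 mice were other animals of the same model. Trpc5 was 7.65 and 8.41 in mutants 1 and 4, against 9.24 and 8.94 in controls 2 and 3. Both mutants lay below both controls, mutant 1 further than mutant 4. The difference was -1.06 (SE 0.25, 95% confidence interval -1.68 to -0.44) and did not pass the threshold over all genes (limma, adjusted p = 0.257, unadjusted p = 0.00575). With 2 mice a group, 0.0752% of all genes were called at P9 in either direction and no member was among them, while 19.7% of genes had mutants wholly below controls.

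At P21 the sign was the opposite. In ca-Map2k1;Neurod6-Cre mutants 1, 3 and 6 Trpc5 was 9.16, 9.03 and 8.89, against 8.36, 8.48 and 8.87 in controls 2, 4 and 5. The lowest mutant and the highest control were nearly level, so the separation was narrow. The difference was 0.46 (SE 0.14, 95% confidence interval 0.14 to 0.77), 1.37 times more signal, and it missed the threshold (adjusted p = 0.327, unadjusted p = 0.0108). No gene at all was called at P21 by limma (0% of 22180), though 2313 genes (10.4%) had an unadjusted p under 0.05, and 8.15% had mutants wholly above controls. The loss and gain models differ in age, array and mouse line as well as in the direction of the kinase change, so these cannot be told apart.

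Trpc4 encodes the subunit closest in sequence and pharmacology to TRPC5. At P9 its signal was 8.66 and 9.01 in mutants 1 and 4, against 9.32 and 9.32 in controls 2 and 3, a difference of -0.49 (SE 0.13, adjusted p = 0.303). At P14 it was 9.31, 9.38 and 9.40 in mutants 1, 9 and 11, against 9.72, 9.82 and 9.55 in controls 2, 10 and 12. The P14 groups lay apart by less than the controls spread among themselves, and the difference was -0.34 (SE 0.10, 95% confidence interval -0.56 to -0.11, adjusted p = 0.232). At P21 it was 8.38, 8.39 and 8.49 in mutants 1, 3 and 6, against 8.16, 8.08 and 8.31 in controls 2, 4 and 5, a difference of 0.24 (SE 0.08, 95% confidence interval 0.05 to 0.43, adjusted p = 0.379). Only the P14 fit with mice 1 and 2 as a block of their own gave Trpc4 an adjusted p under the threshold (0.0490). That fit called 6.69% of all genes, against 1.09% in the main fit. Mutants and controls did not overlap for Trpc4 at any age.

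Trpc5 and Trpc4 were therefore the members whose mutants lay wholly below controls at P9 and P14 and wholly above them at P21. Of 18962 genes on both array types, 0.432% had this pattern (82 genes). Without the P9 condition the same 2 members remained among 141 genes (0.744%). Since the P14 fall of Trpc5 chose the family, its part in this count is a description.

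**Figure D2:**
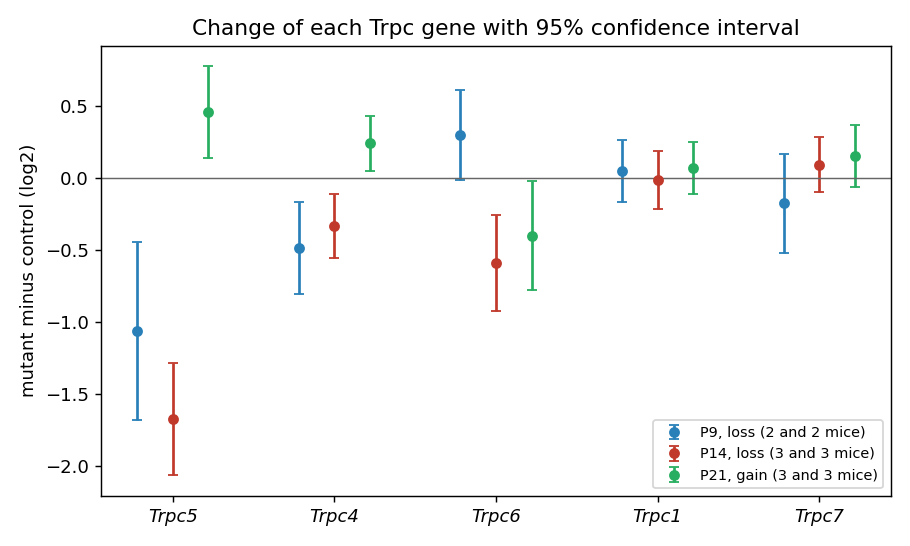
Mutant minus control on the log2 scale (y axis) for each Trpc gene at P9, P14 and P21, with 95% confidence intervals from limma. Trpc5 stands at -1.06, -1.68 and 0.46 and Trpc4 at -0.49, -0.34 and 0.24, while the intervals of Trpc1 and Trpc7 cross 0 at all 3 ages.

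Trpc6 and Trpc7 encode subunits opened by diacylglycerol, the lipid that phospholipase C releases. At P14, Trpc6 was 7.50, 7.67 and 7.70 in mutants 1, 9 and 11, against 7.92, 8.32 and 8.42 in controls 2, 10 and 12. All 3 mutants lay below all 3 controls, and the difference was -0.60 (SE 0.14, adjusted p = 0.136). It passed the threshold where mice 1 and 2 were fitted as a block of their own (adjusted p = 0.00364). That fit called 6.69% of all genes, against 1.09% in the main fit. The arrays of mice 1 and 2 had a 25th percentile of signal of 6.65 and 6.63, against 6.80 to 6.89 for the other 4, and no source names them a batch. In mice 9 to 12 alone it was -0.68 (adjusted p = 0.00569), where both mutants were female and both controls male, so that sex and genotype cannot be told apart. The fit of mice 9 to 12 called 4.94% of all genes. Without control 2 the Trpc6 difference was -0.75 (adjusted p = 0.0404), with 0.687% of all genes called. After quantile normalization it was -0.63 (adjusted p = 0.0402), with 1.58% called. A fit over all 6 mice that included their sex gave -0.72 (adjusted p = 0.33). The methods' thresholds, a fold of 1.5 with an unadjusted p under 0.05 (here limma's), took in Trpc6 and Trpc5 at P14, beside 1.08% of all genes lower, and Trpc5 alone at P9, beside 0.607% lower.

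Trpc6 did not keep this direction at P9, where it was 7.18 and 6.98 in mutants 1 and 4, against 6.92 and 6.64 in controls 2 and 3 (difference 0.30, adjusted p = 0.488). At P21 it was 7.58, 7.51 and 7.0 in mutants 1, 3 and 6, against 7.92, 7.81 and 7.57 in controls 2, 4 and 5 (difference -0.40, adjusted p = 0.452). The sign of Trpc6 thus differed between the loss-of-function ages, and the P21 groups overlapped through mutant 1 and control 5. A direct test of the P14 change against the P9 change gave -0.89 for Trpc6 (unadjusted p = 0.00221, limma adjusted p = 0.730). The same test called 0 of all genes (0%), with 849 genes, or 4.26%, at an unadjusted p under 0.05. For Trpc5 the difference was -0.61, a description that carries no test, since it includes the P14 fall that chose the family. Whether the loss of Trpc5 signal deepened between P9 and P14 was thus not settled by these mice.

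Trpc7 had low signal, within the lowest 30 percent of genes at P9 and P14. It was 5.21 and 4.90 in P9 mutants, against 5.35 and 5.11 in P9 controls (-0.18, adjusted p = 0.723), and 7.12, 7.17 and 7.16 in P14 mutants, against 7.11, 7.10 and 6.97 in P14 controls (0.09, adjusted p = 0.976). The P21 difference was 0.15 (adjusted p = 0.624).

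Trpc1, which joins TRPC4 and TRPC5 in mixed channels, had the smallest differences of the family. Its signal was 10.77, 10.72 and 10.86 in P14 mutants, against 10.74, 10.88 and 10.76 in P14 controls (-0.01, 95% confidence interval -0.21 to 0.19). The groups overlapped fully, and the sign at P14 turned with the scaling (0.03 after quantile normalization). At P9 the difference was 0.05 (adjusted p = 0.900) and at P21 it was 0.07 (adjusted p = 0.806). Trpc2, which is not among the 5 members, was measured at P21 only (6.84, 6.82 and 6.90 in mutants, 6.91, 6.70 and 6.87 in controls).

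Trpc5 was also set against the mean of the other 4 members in each mouse, whose own differences had both signs at each age. At P14 this contrast, with each gene centred on its control mean, was -1.12, -1.65 and -1.62 in mutants 1, 9 and 11, against 0.35, -0.26 and -0.10 in controls 2, 10 and 12, a difference of -1.46. At P9 the difference was -0.98 (-1.40 and -0.57 in mutants 1 and 4), with an exact two-sided permutation p of 0.33, the smallest that 2 against 2 mice allow. At P21 it was 0.44 (0.51, 0.43 and 0.39 in mutants 1, 3 and 6, against -0.18, -0.07 and 0.25 in controls 2, 4 and 5), with an exact permutation p of 0.1, the smallest that 3 against 3 allow. Trpc5 was singled out for its P14 fall, and neither p could go under 0.05, so all these contrasts are descriptions.

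Channels of this family open downstream of receptors, and 13 of 16 listed Gq-coupled receptors were measured. At P14, 2 of the 13 were called lower and 0 higher (0.697% and 0.391% of all genes), with a median difference of -0.22, against 0.02 over all genes. The orexin receptor Hcrtr2, which excites neurons in response to the arousal peptides orexin, was 6.77, 6.73 and 6.71 in P14 mutants, against 7.78, 7.67 and 7.58 in P14 controls (-0.94, SE 0.09, adjusted p = 0.00570). The cholecystokinin receptor Cckbr was 8.94, 8.82 and 8.93 in P14 mutants, against 10.34, 9.78 and 9.84 in P14 controls (-1.09, SE 0.15, adjusted p = 0.0249). Neither was called at P9 (Hcrtr2 -1.16, adjusted p = 0.0925, and Cckbr -0.21, adjusted p = 0.622) or at P21 (0.08 and 0.24).

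The next step, Gq proteins and phospholipases C, showed no call among 13 of 13 genes measured at P14 (median 0.02). Plce1, a phospholipase C that binds Ras proteins, had the lowest p, with a difference of 0.56 (adjusted p = 0.141). Of 10 listed genes for inositol trisphosphate receptors, ryanodine receptors and store-operated entry, 9 were measured. None was called at P14, although all 9 means were higher in mutants (median 0.19), with Itpr3, an inositol trisphosphate receptor, at 0.42 (adjusted p = 0.0971).

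Among 23 of 24 measured partners and regulators of TRPC channels, 1 was called at P14, as lower (0.697% of all genes, median of the list -0.04). This was Homer1, the scaffold that links TRPC channels and metabotropic glutamate receptors to inositol trisphosphate receptors. It was 9.68, 9.81 and 9.94 in P14 mutants, against 10.61, 10.96 and 10.78 in P14 controls (-0.97, SE 0.12, adjusted p = 0.0169). Unlike Trpc5 it was also lower at P21 (-0.36, adjusted p = 0.258), and it was -0.11 at P9 (adjusted p = 0.719).

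Of the calcium/calmodulin-dependent kinases, which act on the calcium that such channels admit, 9 of 10 were measured and 2 were called lower at P14 (0.697% of all genes, median of the list -0.18). Camk1g was 8.58, 8.28 and 8.54 in P14 mutants, against 10.49, 10.01 and 9.87 in P14 controls (-1.66, SE 0.17, adjusted p = 0.00810), a difference of nearly the same size as that of Trpc5. It was -0.59 at P9 (adjusted p = 0.382) but 0.04 at P21 (adjusted p = 0.952). Camk1 was -0.71 at P14 (SE 0.12, adjusted p = 0.0430). Of the other TRP channels, 19 of 20 were measured and none was called at any age. Trpm3, a channel opened by heat and pregnenolone sulfate, had the lowest p at P14 (0.49, adjusted p = 0.199). No gene of these 6 lists was called at P9 or P21.

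**Figure D3:**
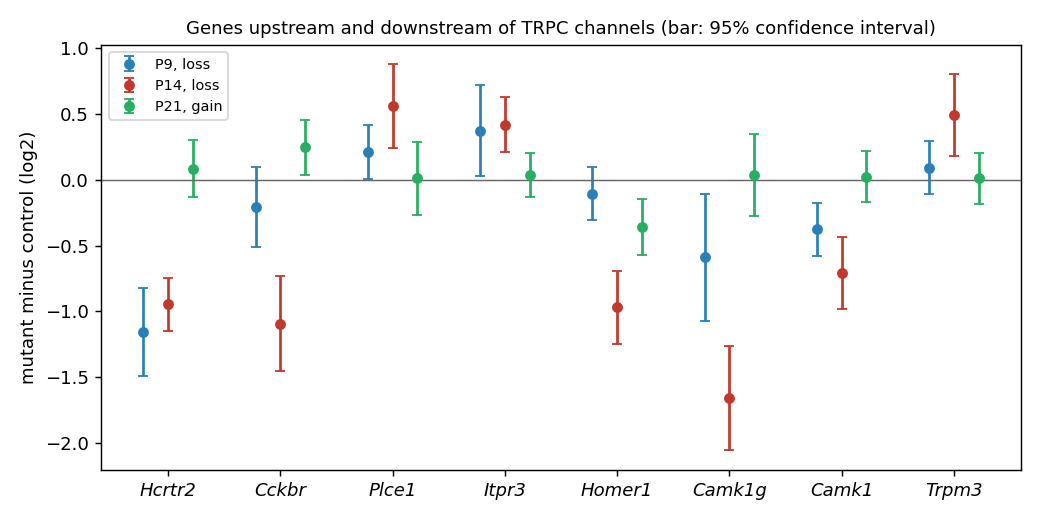
Mutant minus control on the log2 scale (y axis) with 95% confidence intervals at P9, P14 and P21 for the genes named from the lists of receptors (Hcrtr2, Cckbr), phospholipases (Plce1), calcium stores (Itpr3), TRPC partners (Homer1), calmodulin-dependent kinases (Camk1g, Camk1) and other TRP channels (Trpm3). Hcrtr2, Cckbr, Homer1, Camk1g and Camk1 lie below 0 at P14, and none of the 8 was called at P21.

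The measured genes beside Trpc5 on the X chromosome mostly did not share its differences (the plot of neighbouring genes). On the side where Trpc5 ends lie Dcx, which encodes the microtubule protein doublecortin, the microRNA gene Mir680-2 and Alg13, a glycosylation enzyme. Their P14 differences were 0.23, 0.03 and -0.01. On the side where Trpc5 starts lie Rtl4, a gene derived from a retrotransposon Gag protein, then Lhfpl1 (-0.15 at P14) and Amot (-0.17 at P14). The transcript Trpc5os, annotated within the span of Trpc5, differed by 0.16, 0.06 and -0.10 at P9, P14 and P21.

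Rtl4 was the exception. It was 5.61 and 5.58 in P9 mutants, against 6.29 and 5.94 in P9 controls (-0.52, SE 0.13, adjusted p = 0.276). It was 6.93, 7.30 and 7.16 in P14 mutants, against 7.45, 7.74 and 7.59 in P14 controls (-0.47, SE 0.12, adjusted p = 0.195), and 6.98, 6.93 and 6.64 in P21 mutants, against 6.61, 6.52 and 6.43 in P21 controls (0.33, SE 0.10, adjusted p = 0.351). The groups of Rtl4 overlapped at no age, as for Trpc5 and Trpc4, but no age passed the threshold. Rtl4 was picked out after its values were seen among the 6 neighbours and has no independent test. Over all 741 X-linked genes measured at P14 the median difference was 0.02, and 3 were called lower (0.405%, against 0.697% of all genes) and 1 higher.

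**Figure D4:**
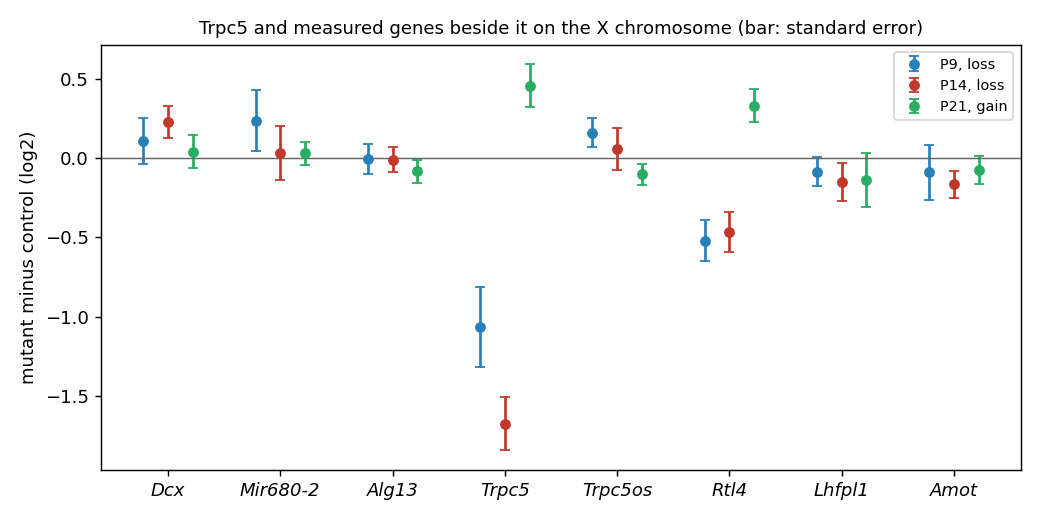
Mutant minus control on the log2 scale (y axis) with standard errors at P9, P14 and P21 for Trpc5 and measured genes near it, in their order along the X chromosome. Rtl4, next to the start of Trpc5, stands at -0.52, -0.47 and 0.33, and the other neighbours stay between -0.17 and 0.24.

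Because Trpc5 is X-linked, the sex of the mice was read from the arrays. Xist, transcribed from the inactive X chromosome of females, was 11.78 and 12.03 in P14 mutants 9 and 11 and at most 6.52 in the other P14 mice, and all P9 and P21 mice had the male pattern. Against the mean of the 3 male controls, Trpc5 at P14 differed by -1.39 in the male mutant 1 and by -1.82 in the female mutants. Against that mean the female mutants were the lower ones, and sex and genotype overlap in part at P14. Among the mutants, sex also goes with the 25th percentile of the array, so these cannot be told apart. The male mutant against control 2, the pair of arrays with lower 25th percentiles, differed by -1.67 for Trpc5 and by -0.42 for Trpc4 and for Trpc6. In mice 9 to 12 alone, with female mutants and male controls, Trpc5 differed by -1.68.

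The patterns most like that of Trpc5 across the 10 loss-of-function mice, each centred on the control mean of its age, were those of Lmo4 (Pearson r = 0.992), Palmd (0.989), Adcy1 (0.986), Nrp1 (0.986) and Gabra5 (0.986). These mice share arrays and groups, so the values describe likeness only. The 5 genes were picked from these same mice, so their P14 differences and adjusted p are descriptions too and carry no test. Lmo4, a LIM-domain transcription cofactor of projection neurons, differed by -0.80 at P14 (adjusted p = 0.0178), Nrp1, a semaphorin receptor, by -1.13 (adjusted p = 0.0284) and Gabra5, a GABA-A receptor subunit, by -2.55 (adjusted p = 0.00731). Palmd differed by -1.26 (adjusted p = 0.0243) and Adcy1, a calcium-stimulated adenylyl cyclase, by -0.39 (adjusted p = 0.105). The r of Trpc4 with Trpc5 was 0.79, that of Trpc6 was 0.45, and those of Trpc1 and Trpc7 were -0.09 and -0.21. The neighbour Rtl4 had an r of 0.73, which was rank 952 among all genes. At P21 the 5 genes most like Trpc5 differed by 0.08 to 0.33, and none was called.

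Cell type markers moved alongside Trpc5 in part. Of 6 layer 5 neuron markers, 2 were called lower at P14 (0.697% of all genes), Crym (-1.19, adjusted p = 0.00671) and Etv1 (-0.76, adjusted p = 0.0282). By mean difference, 5 of the 6 were lower and 1 higher at P9 and at P14, and 2 were lower and 4 higher at P21. The study had named Etv1 and Ldb2 of this list as lower from these same samples, and Fezf2 as tending lower. The mean over the 6 ranged over 9.93 to 10.20 in P14 mutants and 10.53 to 10.84 in P14 controls, over 8.68 to 8.78 in P9 mutants and 9.10 to 9.29 in P9 controls, and over 10.17 to 10.39 in P21 mutants and 10.00 to 10.22 in P21 controls. Of 5 measured markers of cortical excitatory neurons, 1 was called lower at P14 (Nrn1, -0.93), again beside 0.697% of all genes. The paper links the expression of Nrn1 to ERK/MAPK signaling. List means were 11.30 to 11.39 in mutants and 11.57 to 11.60 in controls. The list median was -0.06, with 3 of the 5 markers lower and 2 higher. The glutamate transporter Slc17a7 differed by -0.06, Camk2a by 0.03 and Neurod2 by 0.09. At an unadjusted p under 0.05 (limma), 2 of the 5 were lower and 0 higher, Nrn1 and the marker not named here. The markers named here were singled out after their values were seen. No marker of interneurons, astrocytes, microglia, oligodendrocytes, vessels, striatum, septum, hippocampal granule cells or choroid plexus was called at any age, but some of these lists were shifted. At P14 the 3 measured striatal markers had a median difference of 0.36 (list means of 8.67 to 9.15 in mutants and 8.51 to 8.68 in controls), and the 6 vessel markers one of -0.28 (8.47 to 9.06 in mutants and 8.86 to 9.34 in controls). At P21 the 4 measured oligodendrocyte markers had a median difference of -0.46, with list means of 9.65 to 9.86 in mutants wholly below those of 9.93 to 10.24 in controls. The part of layer 5 neurons or of these other cell types in the Trpc5 values was not tested.

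The targeted genes were checked in the same way. Neurod6, whose locus carries the Cre, was 6.78, 6.30 and 6.16 in P14 mutants, against 10.14, 9.40 and 8.91 in P14 controls (-3.07, adjusted p = 0.00765). It differed by -1.80 at P9 (adjusted p = 0.0925) and by -0.24 at P21 (adjusted p = 0.463), where the groups overlapped although the mutants carry the same Cre. Map2k1 differed by 0.01, 0.07 and 0.23 and Map2k2 by 0.00, 0.03 and -0.00 at P9, P14 and P21. These are values of whole probe sets, and probes within the deleted exon were not analysed here on their own, so they do not check the labels.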

How the data were processed

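Total RNA from 16 mouse cortices was hybridized to Affymetrix arrays, 1 array per mouse, with 1 table for P9 and P14 and another for P21. The deposited log2 values had been normalized by the authors with robust multi-array averaging in Partek 6 (per the submitters' processing notes). No annotation version was stated in the sources used here. Probe sets with a single gene symbol were kept (21789 of 35557 and 23521 of 41345), and the brightest per gene was used. Mutants and controls were compared per age with limma 3.58.1 in R 4.3.3 (Benjamini-Hochberg over all genes, threshold 0.05). These steps were tested on simulated data. Litters could not be assigned to mice, so they are not in the fit. Depth does not apply to arrays, and the number of mice limits the precision.

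The members and gene lists were chosen with earlier results of these data known. Named genes were the 5 members, called genes of each pathway list or, where none was called, the gene with the lowest p at P14, the 5 genes most like Trpc5 over the 10 loss-of-function mice, and 3 measured genes on each side of it. Single cell type markers were named after their values were seen. Promoter windows were taken from RefSeq.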

Additional observations from a re-analysis of the deposited data

Results flagged for a closer look

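Trpc5 and Trpc4 were flagged because every loss-of-function mutant lay on one side of its controls and every gain-of-function mutant on the other. Of 18962 genes on both array types, 82 (0.432%) were wholly lower at P9 and P14 and wholly higher at P21. The P14 fall of Trpc5 chose the family, so its flag is a description. Trpc5 differed by -1.06 at P9, -1.68 at P14 and 0.46 at P21, and Trpc4 by -0.49 at P9, -0.34 at P14 and 0.24 at P21. The difference between the models was not tested, since P21 was measured on another array type and in another mouse line.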

How the results depend on the processing

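The number of Trpc genes called at P14 was 1 as reported (Trpc5, whose call is a description since its fall chose the family). It was 2 (Trpc5 and Trpc6) under the methods' thresholds of a fold of 1.5 and an unadjusted p under 0.05, after quantile normalization and in mice 9 to 12 alone, 3 (with Trpc4) with mice 1 and 2 as a block, and 0 without moderation of the variance or with sex as a covariate. Leaving out 1 mouse at a time gave 0 (without mutant 9 or mutant 11) to 2 (without control 2). At P9 the methods' thresholds called 1 (Trpc5) and every other alternative 0, and at P21 every alternative called 0. Over all genes at P14 the calls numbered 217 (1.09%), against 18 (0.0903%) without moderation, 38 (0.191%) with sex and 316 (1.58%) after quantile normalization. They numbered 480 (2.41%) with all groups in 1 fit, 984 (4.94%) in mice 9 to 12 and 1333 (6.69%) with the block. Leaving out 1 mouse gave 27 to 304. The cause of these shifts was not tested.

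The Trpc5 difference stayed between -1.82 and -1.39 at P14, -1.45 and -0.68 at P9 and 0.35 and 0.61 at P21 under every alternative run. Signs turned for Trpc1 at P14 (0.028 after quantile normalization, and -0.050 to 0.031 on leaving out 1 mouse) and for the P14 minus P9 difference of Trpc4 (0.15, with -0.024 to 0.33 on leaving out 1 mouse). No paired analysis was possible because mutants and controls of an age share no mouse numbers and the sources used here do not tie mice to litters. With 2 or 3 mice a group, differences as small as those of Trpc1 and Trpc7 are within the intervals given.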
